A study of Mus musculus with 16 samples.

Results

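The 6 genes described here make 2 carbohydrate epitopes of neural cell surfaces, polysialic acid and the human natural killer-1 (HNK-1) epitope, or carry them. They were chosen by name, *St8sia2*, *St8sia4*, *Ncam1*, *B3gat1*, *B3gat2* and *Chst10*, out of 37583 genes in the deposited tables, and all 6 passed the filter on low counts in every comparison. RNA was sequenced from cortex and cerebellum of 8 C57BL/6J mice, 4 wild type and 4 carrying the A391T (A393T) mutation of *Slc39a8*, a metal transporter that takes up manganese, which gave 16 libraries in 4 groups of 4. The study's methods describe the wild-type mice as male and 12 weeks old at harvest. The labels list no treatment for any group, and the age and sex of the A391T mice and whether they carried the mutation on 1 or both copies are not given in the sources used here. Each region was dissected out and then frozen, and for the wild-type mice it came from the hemisphere opposite to that used for glycan measurements. Each library is a mixture of cell types in which fewer cells of a type and less RNA per cell cannot be told apart.

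Polysialic acid is a long chain of sialic acids that the polysialyltransferases ST8SIA2 and ST8SIA4 build on N-glycans of the neural cell adhesion molecule NCAM1. It weakens adhesion between cells and is known for its abundance in the developing brain, after which it persists where neurons are still born or remodelled. The HNK-1 epitope is a sulfated glucuronic acid at the end of a galactose-containing chain: the glucuronyltransferases B3GAT1 and B3GAT2 add the glucuronic acid, CHST10 adds the sulfate, and NCAM1 is among the proteins that carry it.

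The cerebellum held less RNA of both polysialyltransferases and of *B3gat1* than the cortex, and more of *B3gat2* and *Chst10*, while *Ncam1*, the shared carrier, did not pass the test. *St8sia2* was 3.43-fold lower in wild-type mice and 4.00-fold lower in A391T mice, and *B3gat1* 3.60-fold and 3.96-fold lower. *St8sia4* lay close to the 2-fold line, at 2.08-fold and 2.11-fold lower. *B3gat2* was 1.72-fold and 1.55-fold higher, and *Chst10* 1.20-fold and 1.33-fold higher. These folds are from edgeR's quasi-likelihood test, which is also the source of each adjusted p below (Benjamini-Hochberg over all genes tested). None of the 6 genes passed the test between the genotypes in either region.

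Library depth ran from 20813432 to 30497206 counts on genes, with a median of 24488842. The summed level of 5 cortex markers was 385 to 431 TPM (a level per gene length, with every library brought to the same total) in cortex against 9.57 to 13.4 TPM in cerebellum, and that of 5 cerebellum markers 4062 to 4462 TPM in cerebellum against 17.9 to 21.7 TPM in cortex, so the region labels held in all 16 libraries. The genotype names did not all match: 8 of the 16 columns of the deposited RPKM table carried the name of a mouse of the other genotype from that of the count file with the same values. Genotypes here follow the count files, and results were repeated with the other names and with the matching mice alone. A391T cerebellum 1 stood apart from the other libraries. In it, 359 of 14411 genes lay 2-fold or more from the median of the cerebellum libraries, against 0 to 82 genes in the other 15 libraries.

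Promoter sequence is shown for the 4 genes that RefSeq's table of the GRCm38.p6 build matched, since *St8sia2*, *St8sia4* and *B3gat1* were lower and *Chst10* higher in the same tissue. *Ncam1* and *B3gat2* had no entry. Each is the 250 bases before a RefSeq transcript start, 5′ to 3′ on the gene's own strand, with GC boxes (GGGCGG, or CCGCCC for the other strand) in capitals. *St8sia2* is chr7:74013683-74013932 on the minus strand, *St8sia4* chr1:95667595-95667844 on the minus strand, *B3gat1* chr9:26751312-26751561 on the plus strand and *Chst10* chr1:38898161-38898410 on the minus strand.
St8sia2: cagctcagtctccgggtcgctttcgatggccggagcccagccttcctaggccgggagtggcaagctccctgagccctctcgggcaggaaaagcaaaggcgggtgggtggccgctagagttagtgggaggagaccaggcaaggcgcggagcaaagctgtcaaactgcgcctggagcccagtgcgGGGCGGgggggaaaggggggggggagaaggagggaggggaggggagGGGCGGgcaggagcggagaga
St8sia4: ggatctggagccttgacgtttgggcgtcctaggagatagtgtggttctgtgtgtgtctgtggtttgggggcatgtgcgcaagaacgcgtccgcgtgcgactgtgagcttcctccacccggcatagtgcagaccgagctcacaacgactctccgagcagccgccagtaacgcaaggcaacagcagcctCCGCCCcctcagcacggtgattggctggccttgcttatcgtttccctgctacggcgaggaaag
B3gat1: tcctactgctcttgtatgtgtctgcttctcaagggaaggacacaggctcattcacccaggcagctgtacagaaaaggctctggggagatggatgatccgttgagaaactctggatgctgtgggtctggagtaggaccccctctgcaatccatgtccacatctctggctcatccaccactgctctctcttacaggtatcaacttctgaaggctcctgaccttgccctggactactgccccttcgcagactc
Chst10: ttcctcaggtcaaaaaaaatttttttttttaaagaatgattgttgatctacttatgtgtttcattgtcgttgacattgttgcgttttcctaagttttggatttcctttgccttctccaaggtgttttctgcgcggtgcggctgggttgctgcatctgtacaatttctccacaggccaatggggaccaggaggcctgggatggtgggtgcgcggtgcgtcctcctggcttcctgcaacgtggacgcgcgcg

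The promoters of both polysialyltransferases were rich in G and C, at 68.8% for *St8sia2* and 60.4% for *St8sia4*, against a median of 52.4% over 32851 promoters of the same length. *St8sia2* held 2 GC boxes and *St8sia4* 1, a motif found in 32.7% of all promoters. The *B3gat1* sequence held no GC box and 2 CpG dinucleotides, below the median of 6, and *Chst10* held 13 CpG and no GC box. A CCAAT box (CCAAT, or ATTGG for the other strand, which overlaps no GC box here) occurred once in *St8sia4* and once in *Chst10*, and in 33.8% of all promoters. A TATA box (TATAAA or TTTATA) was in none of the 4 and in 12.4% of all. No motif of these was common to the sequences shown for the 3 genes that were lower in cerebellum, and a match is a description of the letters only. In the mm9 annotation *B3gat1* has 7 transcripts and *Chst10* 2, and 1 start is shown for each. Other starts of these genes were not examined.

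The first polysialyltransferase, *St8sia2* (ENSMUSG00000025789, mm9 chr7:81084005-81158568, minus strand), is known as the enzyme of the developing brain. It measured 3.62, 4.37, 5.22 and 3.20 TPM in wild-type cortex 1 to 4 and 1.45, 1.24, 1.18 and 1.41 TPM in wild-type cerebellum 1 to 4. In A391T mice it measured 4.27, 4.03, 3.19 and 4.09 TPM in cortex and 0.650, 1.00, 1.21 and 1.39 TPM in cerebellum. Every cerebellum library lay below every cortex library. The level was low throughout, with 103 to 188 counts per cortex library and 28 to 51 per cerebellum library. The log2 difference of cerebellum from cortex was -1.78 (SE 0.17, n = 4 per group, edgeR adjusted p = 2.53e-06) in wild-type and -1.999 (SE 0.20, n = 4 per group, edgeR adjusted p = 1.02e-05) in A391T mice. Within single mice it ranged from -2.68 to -1.37, below -1 in 8 of 8, the widest spread of the 6 genes.

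The second, *St8sia4* (ENSMUSG00000040710, mm9 chr1:97484261-97564171, minus strand), is the polysialyltransferase that remains the more active in the adult. It measured 8.86, 9.53, 9.18 and 8.85 TPM in wild-type cortex and 4.90, 4.32, 5.09 and 5.12 TPM in wild-type cerebellum. The A391T mice had 11.4, 9.73, 11.8 and 8.88 TPM in cortex and 4.91, 5.73, 5.99 and 4.58 TPM in cerebellum. The regions did not overlap, and its level per length was above that of *St8sia2* in all 16 libraries. The log2 difference was -1.06 (SE 0.08, edgeR adjusted p = 5.22e-07) in wild-type and -1.08 (SE 0.12, edgeR adjusted p = 2.74e-05) in A391T mice. The 8 mice ranged from -1.25 to -0.88, and 5 of them were past 2-fold. Scaling by library totals left it short of the 2-fold criterion in both genotypes, at -0.94 and -0.95, and so did the 2 wild-type mice whose names match, at -0.99.

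Summed, the polysialyltransferases came to 12.0 to 15.7 TPM in the 8 cortex libraries and 5.56 to 7.19 TPM in the 8 cerebellum libraries, a ratio of means of 2.20. *St8sia2* made up 29.1% ± 4.4 of that sum in the cortex libraries and 19.0% ± 4.2 in those of cerebellum (SD, n = 8 each). The ratio of *St8sia4* to *St8sia2* in wild-type mice was 2.29 ± 0.43 for cortex and 3.70 ± 0.42 for cerebellum (SD, n = 4 each), a log2 difference of 0.70 in a two-sided exact permutation test (p = 0.0286, the smallest it can give). In A391T mice the ratio was 2.74 ± 0.67 in cortex and 5.38 ± 1.76 in cerebellum, a log2 difference of 0.94 that missed the threshold (two-sided exact permutation p = 0.0571). With the names of the RPKM table the order of these p-values turned round, to 0.0857 for wild-type and 0.0286 for A391T mice in the same exact permutation test.

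*Ncam1* (ENSMUSG00000039542, mm9 chr9:49310257-49607027, minus strand), the main protein that carries polysialic acid, was counted over all its isoforms, which the table does not separate. It measured 77.1, 84.9, 87.4 and 74.3 TPM in wild-type cortex and 93.5, 91.5, 107.9 and 97.8 TPM in wild-type cerebellum. The A391T libraries held 82.5, 83.1, 86.9 and 82.0 TPM in cortex and 61.2, 89.3, 96.0 and 99.5 TPM in cerebellum. The wild-type regions did not overlap on this scale, whereas A391T cerebellum 1 lay below all A391T cortex libraries and the other 3 cerebellum libraries above them. The log2 difference was 0.12 (SE 0.07, edgeR adjusted p = 0.126) in wild-type and -0.06 (SE 0.11, edgeR adjusted p = 0.638) in A391T mice. The wild-type value was 0.24 with library totals (edgeR adjusted p = 0.00299), a scaling that moved the median of all genes from 0.02 to 0.14. Without A391T cerebellum 1 the A391T value turned to 0.05.

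The level of *Ncam1* per polysialyltransferase therefore differed by region. The ratio of its TPM to the summed TPM of *St8sia2* and *St8sia4* had a mean of 5.99 ± 0.33 over the 8 cortex libraries and 14.7 ± 2.1 over the 8 of cerebellum (SD). It ran from 5.26 to 6.32 in cortex and from 11.0 to 17.2 in cerebellum, with no overlap.

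**Figure D1:**
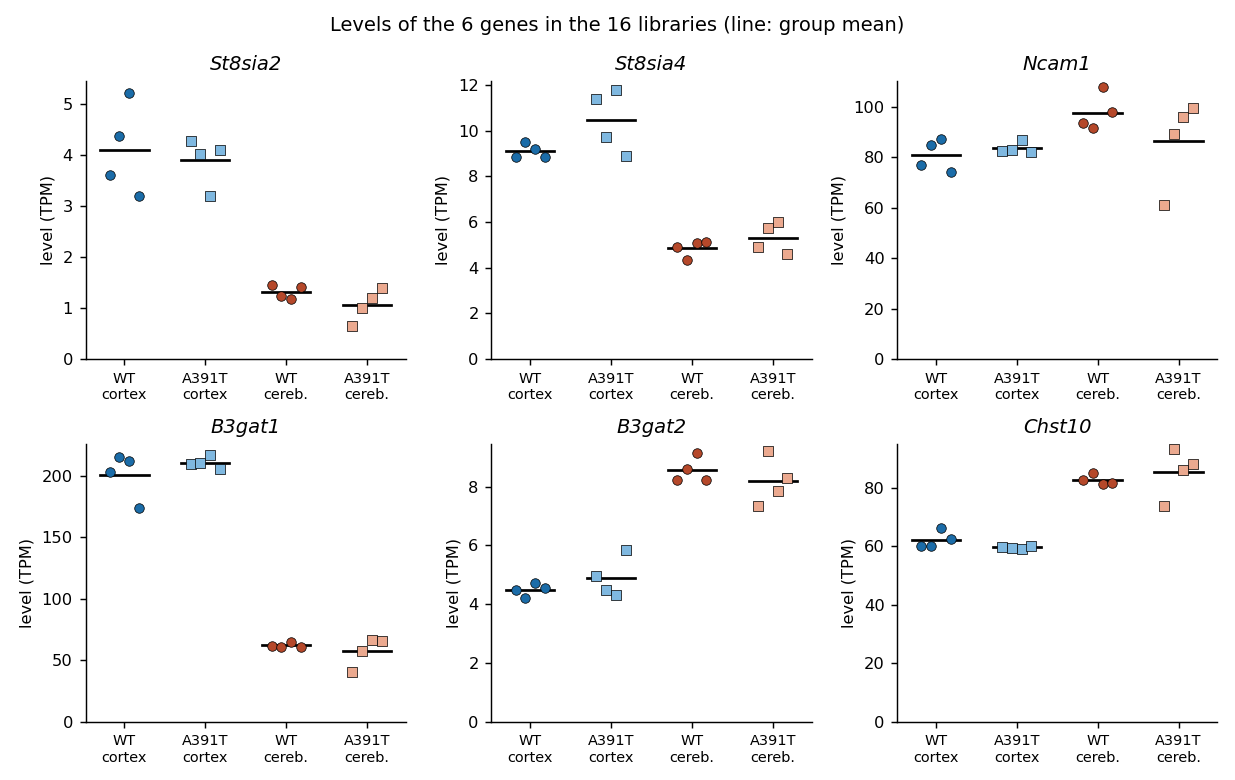
Level in TPM (vertical axes, from 0) of each of the 6 genes in the 16 libraries, grouped as wild-type (WT, circles) and A391T (squares) cortex (blue) and cerebellum (red), with a line at each group's mean of 4 mice. *St8sia2*, *St8sia4* and *B3gat1* sit lower in every cerebellum library than in any cortex library, *B3gat2* and *Chst10* sit higher, and *Ncam1* overlaps only through A391T cerebellum 1, at 61.2 TPM.

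*B3gat1* (ENSMUSG00000045994, mm9 chr9:26541313-26570686, plus strand), the principal HNK-1 glucuronyltransferase of the brain, had the highest level per length of the 6 in cortex. It measured 202.8, 215.0, 212.3 and 174.2 TPM in wild-type cortex and 61.9, 60.6, 65.0 and 60.8 TPM in wild-type cerebellum. The A391T mice had 209.5, 210.4, 217.3 and 205.8 TPM in cortex and 40.5, 57.6, 66.1 and 65.8 TPM in cerebellum. All cerebellum libraries lay far below all cortex libraries. The log2 difference was -1.85 (SE 0.07, edgeR adjusted p = 1.19e-09) in wild-type and -1.99 (SE 0.12, edgeR adjusted p = 2.29e-07) in A391T mice, and -2.36 to -1.72 within the 8 mice. Without A391T cerebellum 1, the lowest library, the A391T value was -1.87.

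*B3gat2* (ENSMUSG00000026156, mm9 chr1:23768592-23855997, plus strand), the other HNK-1 glucuronyltransferase, went the opposite way. It measured 4.47, 4.22, 4.72 and 4.54 TPM in wild-type cortex and 8.22, 8.61, 9.16 and 8.23 TPM in wild-type cerebellum. The A391T libraries held 4.97, 4.50, 4.31 and 5.83 TPM in cortex and 7.33, 9.21, 7.86 and 8.31 TPM in cerebellum. The regions did not overlap. The log2 difference was 0.78 (SE 0.08, edgeR adjusted p = 5.63e-06) in wild-type and 0.63 (SE 0.12, edgeR adjusted p = 8.99e-04) in A391T mice, and above 0 but short of 2-fold in all 8 mice (0.38 to 0.92). In the mm9 annotation 33.5% of its exonic bases overlapped *Smap1* on the other strand, and reads were counted without regard to strand. HTSeq usually sets reads that overlap 2 genes aside as ambiguous, though the setting used is not given in the sources used here, so the level of *B3gat2* per length, and with it its place in the order of levels and its share of the glucuronyltransferases, may be understated. For *Ncam1* and *B3gat1* this overlap was 2.51% (*Gm11149*) and 1.17% (*Glb1l2*).

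Since *B3gat1* was so much the more abundant, the summed level of both glucuronyltransferases followed it, with a mean of 210.6 ± 13.6 TPM over the cortex libraries and 68.2 ± 8.7 TPM over those of cerebellum (SD, n = 8 each). *B3gat2* made up 2.24% ± 0.29 of that sum in cortex and 12.4% ± 1.5 in cerebellum. The ratio of *B3gat1* to *B3gat2* fell from 44.9 ± 5.2 in wild-type cortex to 7.26 ± 0.23 in wild-type cerebellum (SD, n = 4 each), a log2 difference of -2.62 (two-sided exact permutation p = 0.0286, the smallest possible). The A391T ratio fell from 43.7 ± 6.5 to 7.03 ± 1.36, a log2 difference of -2.64 (two-sided exact permutation p = 0.0286). No cerebellum library reached a cortex library in either genotype.

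*Chst10* (ENSMUSG00000026080, mm9 chr1:38920722-38955005, minus strand), the sulfotransferase that completes the epitope, measured 60.3, 60.2, 66.4 and 62.5 TPM in wild-type cortex and 82.8, 85.1, 81.4 and 81.6 TPM in wild-type cerebellum. Among A391T mice the values were 60.0, 59.6, 59.0 and 60.2 TPM in cortex and 73.8, 93.4, 86.1 and 88.3 TPM in cerebellum. The regions did not overlap, and the 4 A391T cortex libraries lay close together, with an SD of 0.512 TPM around 59.7 TPM. The log2 difference was 0.26 (SE 0.06, edgeR adjusted p = 0.00156) in wild-type and 0.41 (SE 0.06, edgeR adjusted p = 1.92e-04) in A391T mice, and above 0 in 8 of 8 mice (0.17 to 0.53). It missed the threshold in the 2 wild-type mice whose names match, at 0.17 (edgeR adjusted p = 0.177). Per unit of sulfotransferase RNA, *B3gat1* stood at a TPM ratio of 3.38 ± 0.28 over cortex libraries and 0.710 ± 0.084 over cerebellum libraries (SD, n = 8 each), so the order of the 2 HNK-1 enzymes in level was turned round between the regions in all 16 libraries.

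**Figure D2:**
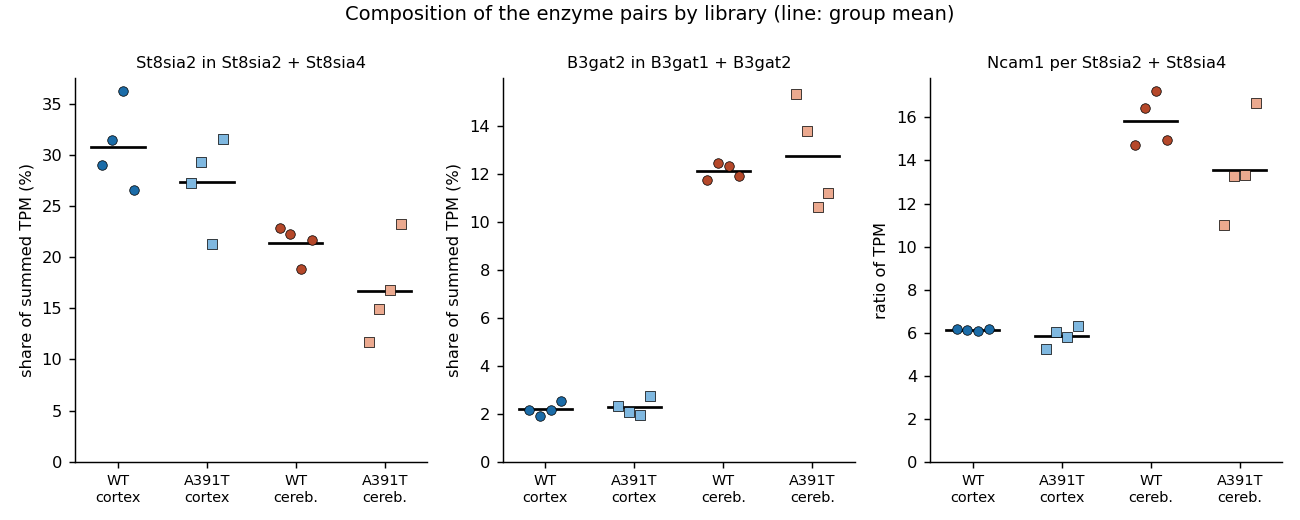
Share of *St8sia2* in the summed TPM of the polysialyltransferases, share of *B3gat2* in that of the glucuronyltransferases (both in percent) and ratio of *Ncam1* TPM to the polysialyltransferase sum, with 1 point per library and a line at each group's mean of 4. The share of *B3gat2* is 1.92% to 2.76% in cortex libraries and 10.6% to 15.3% in cerebellum libraries, while the shares of *St8sia2* overlap between regions.

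Ordered by mean level per length, cortex held *B3gat1* (205.9 TPM), *Ncam1* (82.3 TPM), *Chst10* (61.0 TPM), *St8sia4* (9.78 TPM), *B3gat2* (4.70 TPM) and *St8sia2* (4.00 TPM). The last pair overlapped, *B3gat2* being the higher in 6 of 8 libraries, and all other neighbours were separate. In cerebellum the order was *Ncam1* (92.1 TPM), *Chst10* (84.1 TPM), *B3gat1* (59.8 TPM), *B3gat2* (8.37 TPM), *St8sia4* (5.08 TPM) and *St8sia2* (1.19 TPM). There the first pair overlapped, with *Ncam1* above *Chst10* in 6 of 8 libraries, and the other neighbours did not.

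By the study's 2 criteria, an adjusted p under 0.05 and at least a 2-fold change, 3 of the 6 genes were called lower in cerebellum and none higher, in wild-type and in A391T mice alike. Over all genes tested 24.7% met both criteria in wild-type mice (14.2% lower, 10.5% higher) and 24.7% in A391T mice (14.9% lower, 9.8% higher). By adjusted p alone 5 of 6 passed in each genotype, against a background of 67.8% and 62.8%, so a count of 5 is not a result about these genes. Leaving out any 1 library kept the 3 calls in both genotypes. All 8 mice in 1 model, with the mouse as a block, gave -1.87 (SE 0.14) for *St8sia2*, -1.06 (SE 0.06) for *St8sia4*, -1.91 (SE 0.07) for *B3gat1*, 0.72 (SE 0.07) for *B3gat2*, 0.34 (SE 0.05) for *Chst10* and 0.03 (SE 0.06) for *Ncam1*, as log2 differences that use no genotype names. In that model 25.2% of 16589 genes met both criteria.

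**Figure D3:**
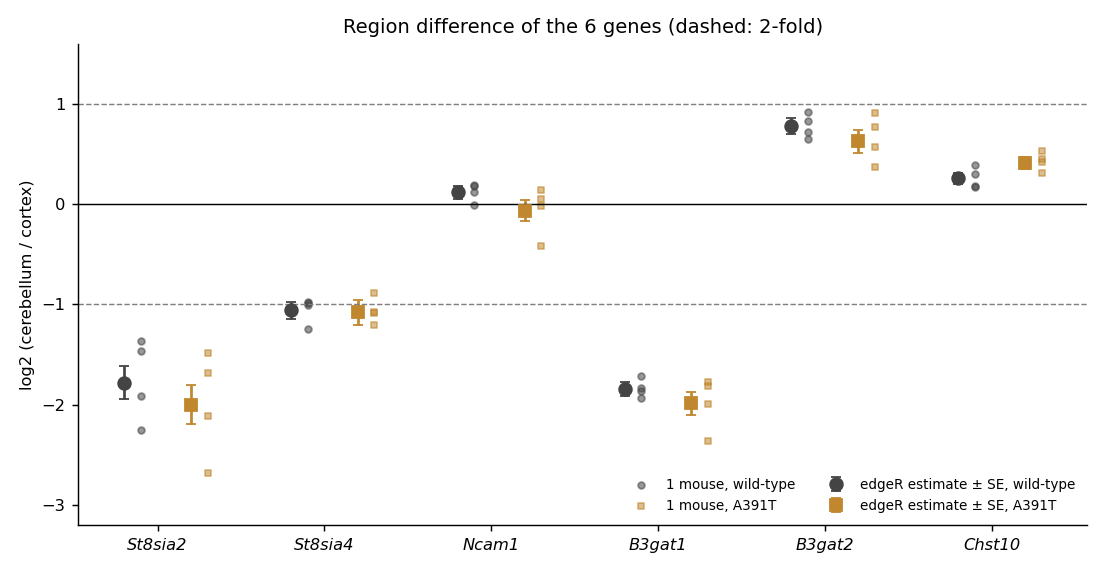
Log2 of cerebellum over cortex for the 6 genes, as edgeR estimate ± SE in wild-type (dark circles) and A391T mice (ochre squares), with the 4 single mice of each genotype as small points beside it and dashed lines at 2-fold. *St8sia2* and *B3gat1* lie beyond -1 in every mouse, *St8sia4* straddles -1, *Ncam1* straddles 0, and *B3gat2* and *Chst10* lie between 0 and 1.

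Between genotypes the question was whether the *Slc39a8* mutation changed these genes in either region. In cortex the log2 differences of A391T from wild type ran from -0.09 (SE 0.15) for *St8sia2* to 0.18 (SE 0.09) for *St8sia4*, and all 6 had an edgeR adjusted p of 0.9997. In cerebellum they ran from -0.28 (SE 0.21) for *St8sia2* to 0.18 (SE 0.11) for *St8sia4*, with edgeR adjusted p from 0.538 to 0.954. Over all genes edgeR called 2 of 15815 in cortex (0.0126%) and 0 of 15668 in cerebellum by adjusted p, with 748 and 1340 genes at an unadjusted p under 0.05, and DESeq2 called 16 and 27 by adjusted p, none of them among the 6. These misses do not show that the genotypes are alike, least of all for *St8sia2*, whose counts were lowest.

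The region difference did not pass a test of change with genotype in any of the 6 genes. The interaction ran from -0.21 (SE 0.26) for *St8sia2* to 0.17 (SE 0.08) for *Chst10*, whose unadjusted p was the lowest at 0.0457 (edgeR adjusted p = 0.769). Over 16589 genes edgeR called 0 interactions, with 805 at an unadjusted p under 0.05, and DESeq2 called 1.

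Of 32 other genes of both pathways, 30 were tested, and in wild-type mice 5 were called lower and 3 higher in cerebellum. These counts are close to the background of both criteria, 14.2% lower and 10.5% higher over all genes. By adjusted p alone 12 were lower and 8 higher, against 33.1% and 34.7% of all genes. Their median log2 difference was -0.21 in wild-type and -0.19 in A391T mice, against 0.02 and 0.03 over all genes. Of proteins other than NCAM1 that can carry polysialic acid, 2 were listed and both were lower by adjusted p in wild-type mice: *Cadm1*, an adhesion molecule of synapses, at -1.05 (SE 0.07), and *Nrp2*, a semaphorin receptor, at -0.86 (SE 0.16). *Ncam2*, a relative of *Ncam1* in the same list, was also lower, at -1.39 (SE 0.20) beside 0.12 for *Ncam1*.

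Among the other alpha2,8-sialyltransferases, 2 of 4 were lower and 2 higher by adjusted p in wild-type mice. Those higher were ganglioside enzymes, *St8sia1* at 1.07 (SE 0.14) and *St8sia5* at 1.43 (SE 0.07), with 229.8 to 252.2 TPM of *St8sia5* in wild-type cerebellum. Of 4 sialic acid supply genes tested, 1 was lower and 1 higher by adjusted p, and none was called. *Cmas*, which activates sialic acid, was lower at -0.69 (SE 0.08) and *Nans*, a sialic acid synthase, higher at 0.42 (SE 0.07).

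On the HNK-1 side, *B4galt2*, a galactosyltransferase that can make the acceptor chain, was lower at -1.60 (SE 0.08), from 75.4 to 99.4 TPM in wild-type cortex to 30.9 to 32.8 TPM in wild-type cerebellum, and was 1 of 3 in its list to pass. Of 4 genes that supply the sulfate donor, the synthase *Papss2* was called lower at -1.15 (SE 0.09), from a mean of 15.1 TPM in wild-type cortex to 7.55 TPM in wild-type cerebellum. The other synthase, *Papss1*, was far more abundant, at means of 124.5 and 131.5 TPM, and did not pass at -0.07 (SE 0.08, edgeR adjusted p = 0.429). *Slc35b2*, the donor's Golgi transporter, was higher by adjusted p at 0.61 (SE 0.09). Of 4 genes for glucuronic acid supply, with the related *B3gat3*, 2 were lower and 2 higher by adjusted p and none was called. Of 8 carrier genes tested, *Gria2*, an AMPA receptor subunit, was called lower at -1.06 (SE 0.06) and *Tnc*, the matrix protein tenascin-C, higher at 2.54 (SE 0.12), the largest change of the 30. In A391T mice 5 of the 30 were called lower and 2 higher. *St8sia1* and *Papss2* then stood short of 2-fold at 0.91 and -0.92, and *Nrp2* past it at -1.11. None of the 30 passed in a genotype comparison or in the interaction.

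**Figure D4:**
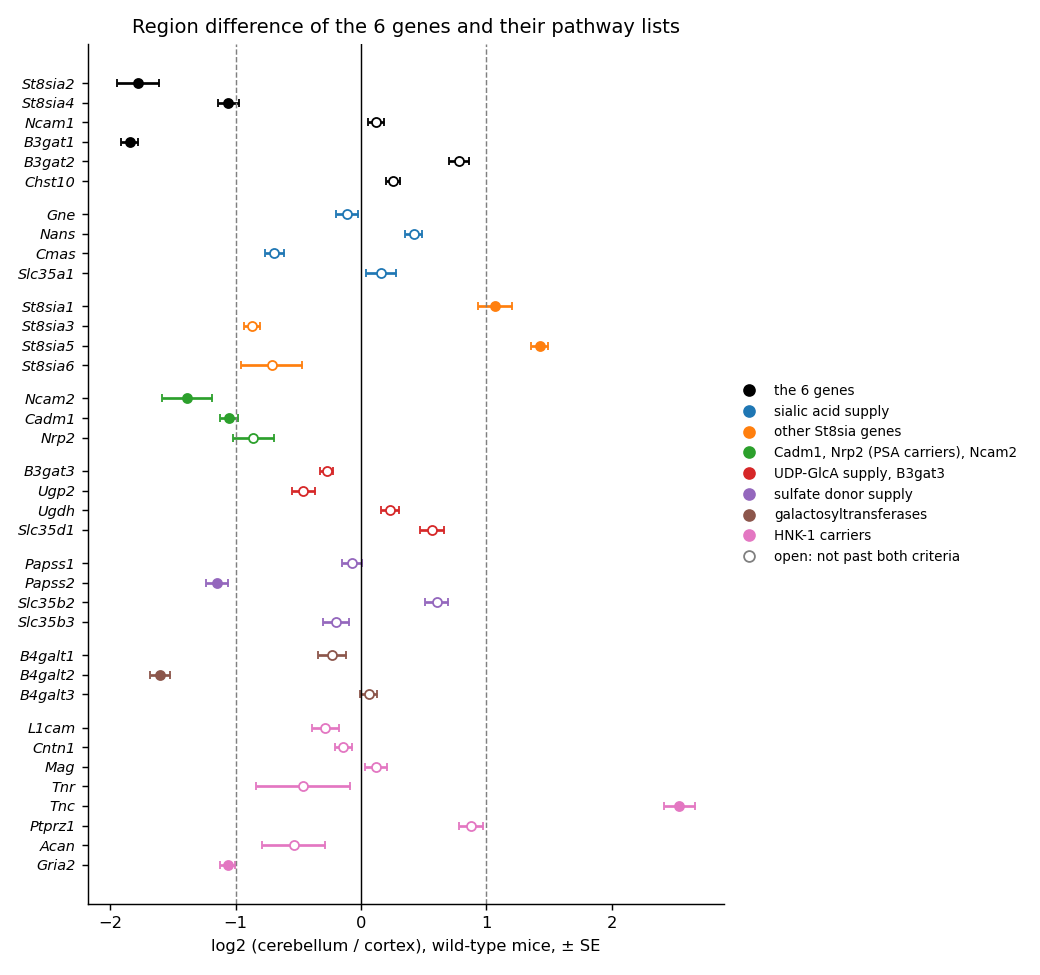
Log2 of cerebellum over cortex in wild-type mice, as edgeR estimate ± SE, for the 6 genes (black) and the 30 tested genes of 7 pathway lists (colours), with dashed lines at 2-fold. Filled points met both criteria: 3 of the 6 genes, all lower, and 5 lower and 3 higher of the 30, from *B4galt2* at -1.60 to *Tnc* at 2.54.

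Markers of cell types, among them cells that are known to carry polysialic acid, also differed between the regions, in both directions. Of 9 immature neuron entries, 4 passed the filter within cerebellum too. Their mean levels in wild-type cortex and cerebellum were 5.62 and 0.72 TPM for *Dcx* and 7.36 and 1.95 TPM for *Sox11*. *Sox4* stood at 12.2 and 4.92 TPM and *Cd24a* at 11.3 and 16.0 TPM. Of these *Dcx*, of migrating neurons, was at -3.11 (SE 0.11) in wild-type mice, and *Sox11* and *Sox4* were called lower as well, while *Cd24a* was at 0.35 and did not pass. Over all genes 14.2% were called lower. The other 4 entries tested, *Igfbpl1*, *Dlx1*, *Dlx2* and *Sp8*, the last 3 also genes of forebrain interneurons, were near or at 0 in cerebellum and were tested only through their cortex level. *Dlx1* was at 23.2 to 28.3 TPM in cortex and at most 0.149 TPM in cerebellum, *Dlx2* at 8.95 to 11.6 TPM and at most 0.0509 TPM, and *Sp8* at 4.87 to 10.0 TPM and 0 in all 8 cerebellum libraries. The last of the 9 entries, a second identifier of *Sox4*, was at 0 in all 16 libraries. It was the only entry at 0 in a cortex library, and at most 3 entries were at 0 in a cerebellum library. Oligodendrocyte precursor markers summed to 77.7 to 100.7 TPM in cortex and 34.3 to 40.0 TPM in cerebellum. In wild-type mice 4 of 4 were lower by adjusted p, against 33.1% of all genes. Astrocyte markers summed to 822.9 to 1004 TPM in cortex and 1353 to 1701 TPM in cerebellum. There 2 of 5 were called higher in both genotypes, *Aqp4* at 1.83 and *Slc1a3* at 1.13 in wild-type mice. Of all genes 10.5% were called higher in wild-type and 9.8% in A391T mice. In wild-type mice *Aldh1l1* and *Gja1* did not pass, at -0.06 and 0.08. The part of these cell types in the values of the 6 genes was not tested.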

How the data were processed

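Sequencing was of polyA-selected RNA, with reads aligned by STAR to mm9 and counted per Ensembl gene by HTSeq without regard to strand, per the labels and the study's methods. The authors deposited raw counts per gene for each library and a table of RPKM values, which served here for gene names and lengths and for checking library names. The shares of reads that HTSeq gave no gene, 10.2% to 13.2% unassigned, 2.20% to 2.75% ambiguous and 8.41% to 12.1% not unique, were left out. Tests on counts used edgeR 4.0.16 under R 4.3.3 (filterByExpr, TMM, quasi-likelihood, Benjamini-Hochberg over all genes). The code was checked on simulated counts with the same spread for all genes and no library that stood apart, so that check does not cover such a library. Tests on ratios of TPM were exact permutation tests in scipy 1.17.1. Alternatives were DESeq2 1.42.0, RLE factors, library totals, no filter, mouse as a block, both sets of names and leaving out each library. The model of all 8 mice was added after seeing the data.

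The 6 genes and the lists were chosen with earlier results of these data known. Also named were listed pathway genes called between regions in wild-type mice or past adjusted p between genotypes, and the 3 genes most correlated with each of the 6; *Nrp2*, *Cmas*, *Nans*, *Papss1*, *Slc35b2* and single markers were named after their values were seen. Replicates are separate mice, and cortex and cerebellum of the same number come from the same mouse. The deviations of such pairs from their group means correlated at -0.19 to 0.25 (median -0.09, 8 pairs), against -0.29 to 0.26 (median 0.03, 24 pairs) for different mice. None of the 24 pairs of libraries within a group agreed within sampling noise.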

Additional observations from a re-analysis of the deposited data

How the results depend on the processing

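The 3 calls in each genotype were kept under DESeq2, RLE factors, no filter, the names of the RPKM table and the loss of any 1 library. With mouse as a replicate block the log2 region differences were -1.77 and -2.004 for *St8sia2*, -1.06 and -1.08 for *St8sia4* and -1.84 and -2.001 for *B3gat1* in wild-type and A391T mice, and the block changed no call. *St8sia4* lost its call where the report says so. For *Ncam1* between regions, library totals gave 0.24 in wild-type mice, now past the threshold, and 0.071 in A391T mice, turned in sign. Leaving out 1 library gave -0.12 to 0.049 in A391T mice, positive without A391T cerebellum 1. *Chst10* in wild-type mice weakened to 0.17 with the matching mice alone. The cause was not tested.

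Genotype differences and interactions, none of which passed, turned in sign as follows. With the names of the RPKM table they were 0.045 for *St8sia2*, -0.021 for *Ncam1* and -0.11 for *B3gat2* in cortex, -0.0011 for *St8sia4* and 0.053 for *B3gat2* in cerebellum, and 0.15 for the *B3gat2* interaction. With the matching mice alone *B3gat2* was 0.040 in cerebellum and 0.017 in the interaction. Leaving out 1 library gave -0.17 to 0.029 for *St8sia2* and -0.0025 to 0.073 for *B3gat1* in cortex, -0.14 to 0.038 for *B3gat1* and -0.062 to 0.0066 for *B3gat2* in cerebellum, and -0.071 to 0.067 for the *St8sia4* interaction.

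The log2 difference of the *St8sia4* to *St8sia2* ratio was 0.68 in wild-type and 0.97 in A391T mice with the names of the RPKM table, and 1.37 in the 2 matching A391T mice, where the *B3gat1* to *B3gat2* ratio was -2.92. Without any 1 library the first ratio was 0.58 to 0.80 and 0.76 to 1.16, and the second -2.70 to -2.56 and -2.74 to -2.54, in wild-type and A391T mice. Smaller sets and the block of 4 mice could not reach p = 0.05 in an exact test (smallest 0.0571, 0.125 and 0.333), so their p says nothing of stability. *St8sia2*, at 28 to 51 counts in cerebellum, is the value that depth limits most.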

Other observations

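The genes most like each of the 6 were found over the 16 libraries by Pearson correlation of log2 CPM with the region means subtracted, among 14411 genes. They are a description, chosen as the highest of many, with no test. For *Ncam1* they were *Gnptab* (r = 0.97, Spearman's rho = 0.94), *Ocrl* (r = 0.96) and *Alg11* (r = 0.96), and for *B3gat1* they were *BC017647* (r = 0.97), *4933431E20Rik* (r = 0.96) and *Ermp1* (r = 0.95). *St8sia2* went with *Ehd3* (r = 0.91), *Ppp2r5d* (r = 0.90) and *Cherp* (r = 0.90), and *Chst10* with *Usp39* (r = 0.91), *Umps* (r = 0.83) and *Gpr137b* (r = 0.82). *St8sia4* went with *Itgb3* (r = 0.79), *Pvr* (r = 0.77) and *Mastl* (r = 0.74), and *B3gat2* with *Pgam2* (r = 0.82), *Baiap2* (r = 0.77) and *Ino80b* (r = 0.75). Over these 18 genes Spearman's rho ran from 0.56 to 0.94, and r without the 2 libraries farthest from the median from 0.41 to 0.92. Of the 18, *Ino80b* and *Baiap2*, both listed for *B3gat2*, had the lowest r without those libraries and within cerebellum. *Ino80b* was at 0.41 without those libraries and 0.30 within cerebellum, and *Baiap2* at 0.57 and 0.50. Within cortex they were at 0.86 and 0.87, with *Gpr137b* lowest at 0.68. Without A391T cerebellum 1 they were at 0.80 and 0.82, with *Mastl* lowest at 0.74.

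Among the 15 pairs of the 6 genes themselves, *B3gat1* and *Ncam1* were the closest (r = 0.93, rho = 0.80), at 0.82 within cortex, 0.95 within cerebellum, 0.68 without the 2 libraries farthest from the median of *B3gat1* and 0.72 without A391T cerebellum 1. *B3gat1* and *St8sia2* stood at 0.75, which was 0.39 without A391T cerebellum 1. The polysialyltransferases stood at -0.39 to each other. The libraries share their depth and quality in every such value.

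Other marker lists are given by the range of their summed TPM. Oligodendrocyte markers were at 3426 to 4045 in cortex and 3137 to 4908 in cerebellum, inhibitory neuron markers at 1743 to 2416 and 1961 to 4906, and blood markers at 198.2 to 313.1 and 254.8 to 362.9. The highest inhibitory value rested on *Pvalb*, at 4418 TPM in 1 A391T cerebellum library. Striatum markers ran from 264.9 to 906.6 in cortex and up to 310.5 in cerebellum, and choroid plexus markers from 9.13 to 50.2 in cortex and 42.0 to 8117 in cerebellum. Dentate gyrus markers were at 7.85 to 10.3 and 22.9 to 31.4, and olfactory bulb markers at 8.21 to 13.6 and 35.5 to 74.3. Their members did not all go the same way. Between wild-type cortex and cerebellum, mean *Eomes* was at 0.58 and 24.5 TPM and *Th* at 3.05 and 20.3 TPM, with *Doc2g* higher too. *Cdhr1* was at 4.09 and 0.49 TPM and *Tbx21* at 0.32 and 0.12 TPM. *Prox1* was at 6.07 and 19.7 TPM, with *Dsp* and *Tdo2* higher too, and *C1ql2* at 1.78 and 1.61 TPM. These sums do not identify a tissue.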
